A study of Rattus norvegicus with 6 samples.

Results

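Dusp1, Dusp5, Dusp6 and Spry1 encode negative feedback regulators of the RAS-ERK signalling cascade. They were measured by 7 probe sets, out of the 4818 that were tested, on 6 arrays of cultured rat fibroblasts. The members were every probe set that maps to exactly 1 gene with one of these symbols, which gave 3 probe sets for Dusp1, 2 for Dusp6 and 1 each for Dusp5 and Spry1. 208F is an immortal rat fibroblast line that is not transformed, and FE8 is the HRAS-transformed line set against it. The 4 groups were untreated 208F (1 array), 208F treated for 96 h with 5-aza-2'-deoxycytidine at 0.3 µM (2 arrays), untreated FE8 (1 array) and FE8 treated at that dose and duration (2 arrays). This agent, also called decitabine, is built into DNA in place of deoxycytidine and traps DNA methyltransferases. A single line represents each state, so HRAS transformation and any other difference between these lines cannot be told apart, and the labels do not say whether treated duplicates came from separate cultures. All p-values therefore measure the spread between treated duplicates, which may be technical. Each untreated group is 1 array with no spread of its own, so comparisons that use it borrow that spread.

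As background, growth factor receptors activate RAS, RAS activates the kinases RAF, MEK and ERK in turn, and active ERK enters the nucleus and induces genes that dampen the same cascade. Dual-specificity phosphatases (Dusp) remove phosphate from both the threonine and the tyrosine of the activation loop of MAP kinases. Dusp6 (also called Mkp3) is cytoplasmic and selective for ERK, Dusp5 is nuclear and selective for ERK, and Dusp1 (Mkp1) is nuclear and also acts on the stress kinases JNK and p38. Sprouty proteins such as Spry1 act further upstream, between the receptor and RAF.

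The drug under study acts on DNA methylation at CpG sites, so the sequences just upstream of Dusp1 and Dusp5 are shown to give their CpG content and the sites in them for factors that respond to kinase signalling. They are the 250 bases before the RefSeq start site in build GRCr8, both on the plus strand, at chr10:17184603-17184852 for Dusp1 and chr1:262543524-262543773 for Dusp5. The corresponding windows for Dusp6 and Spry1 are not shown, since 102 and 250 of their bases lie inside the annotated gene, which has several transcripts. Capitals mark matches, on either strand, to the cyclic AMP response element TGACGTCA (CRE) or to the CArG box, the site of serum response factor.
Dusp1: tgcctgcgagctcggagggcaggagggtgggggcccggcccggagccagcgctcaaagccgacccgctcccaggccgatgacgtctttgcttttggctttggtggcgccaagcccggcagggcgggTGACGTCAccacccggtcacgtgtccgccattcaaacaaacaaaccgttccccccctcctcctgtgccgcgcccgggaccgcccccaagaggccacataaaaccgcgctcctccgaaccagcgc
Dusp5: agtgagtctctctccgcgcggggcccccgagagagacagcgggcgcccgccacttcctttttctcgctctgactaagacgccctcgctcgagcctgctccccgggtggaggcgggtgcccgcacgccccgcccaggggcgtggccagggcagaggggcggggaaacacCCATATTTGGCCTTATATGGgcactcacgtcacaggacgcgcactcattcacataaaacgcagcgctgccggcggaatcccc
The Dusp1 sequence holds a CRE from -124 to -117 counted from the start site. The Dusp5 sequence holds a pair of adjoining CArG boxes, CCATATTTGG from -82 to -73 and CCTTATATGG from -72 to -63. A CRE stood in 531 of 33465 rat windows of this length and a CArG box in 501 of them. Of these, none was left out for overlapping its gene, unlike the windows of Dusp6 and Spry1 above. The other motifs searched were TGANTCA (AP-1, in 6.34% of windows), CCGGAA (ETS factors, 12.6%) and TATAAA (12.9%), none of which was found in either window. Each of the 2 windows held 25 CpG dinucleotides, against a median of 5 over all windows, and 90.3% of windows held fewer. Methylation was not analysed here, and a match describes letters only. Other forms of these sites were not searched, so a motif not found does not mean that its factor has no site.

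The values are signal intensities per probe set on a linear scale, compared here as log2(signal + 64), with the pseudocount of 64 set at the 10th percentile of the tested values. Median signals per array lay between 354 and 422. Both untreated arrays came from 1 chip lot and run day and all treated arrays from a later period (208F treated replicate 1 on a lot and day of its own), so drug and run session cannot be told apart in any drug effect below. The line comparisons lie within the untreated or within the treated session. The ratio of 5' to 3' signal of beta-actin, a sign of RNA quality, was 0.824 in untreated 208F and between 0.351 and 0.529 on the other 5 arrays. The same ratio for GAPDH was 0.916 in untreated 208F and 0.691 in untreated FE8. It lay between 1.01 and 1.13 on the 4 treated arrays, so it moved with drug and run session together. The part of these ratios in the results was not tested. Of 12 fibroblast markers 9 were measured, and each had a signal above 64 on all arrays except Col3a1 on FE8 treated replicate 1, at 28. The 9 markers did not order the lines alike. Collagen Col1a1 read 10934 to 13955 in 208F and 166 to 474 in FE8, while S100a4 read 20185 in untreated 208F against 23151 in untreated FE8, and Thy1 3635 against 4342. In such bulk samples fewer cells of a type and less RNA per cell cannot be told apart.

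**Figure D1:**
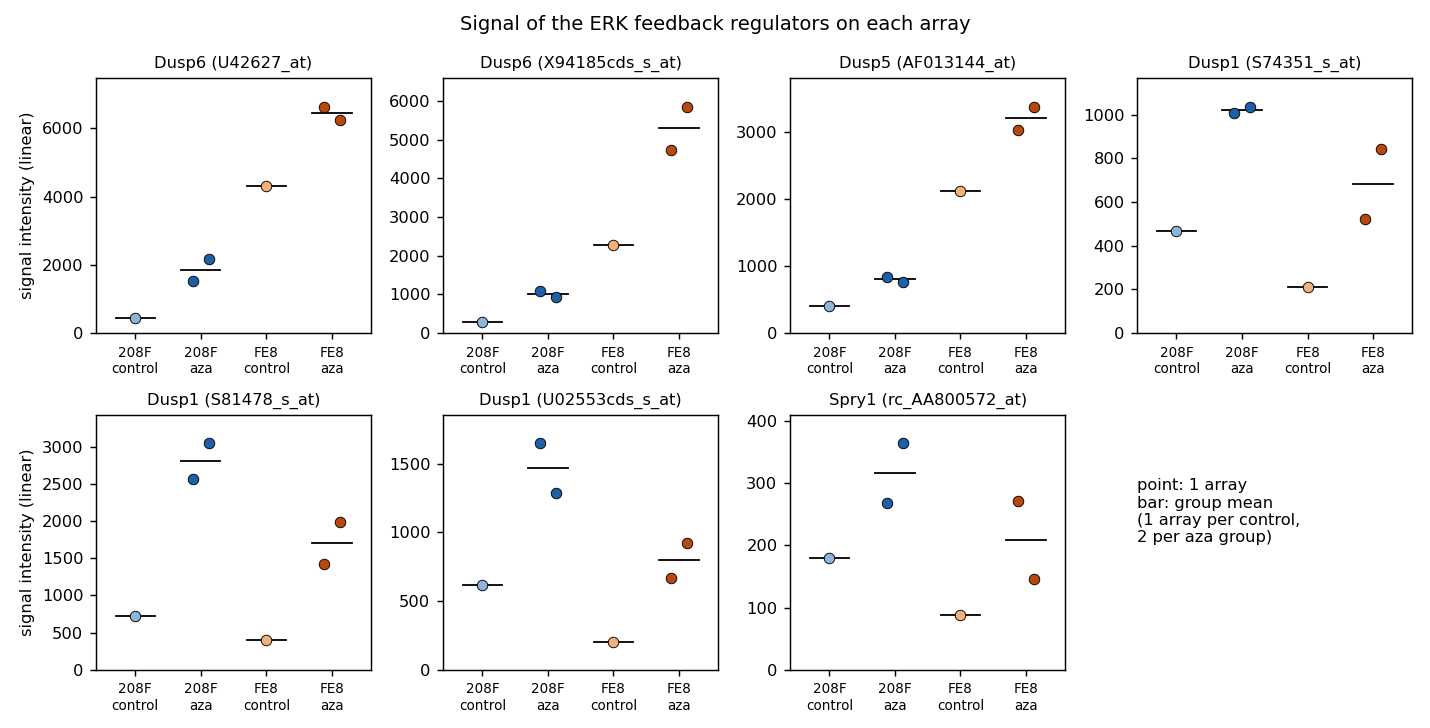
Signal intensity (linear scale, each axis from 0) of the 7 member probe sets on each array, by group, where a point is 1 array and a bar the group mean. Dusp6 and Dusp5 were highest in treated FE8 and lowest in untreated 208F, while Dusp1 and Spry1 had their highest mean in treated 208F and their lowest value in untreated FE8.

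Dusp6 and Dusp5, the ERK-selective phosphatases, were higher in FE8 than in 208F, without the drug and with it. Dusp6 by probe set U42627_at read 436 in untreated 208F and 4313 in untreated FE8. With the drug it read 1533 and 2156 in 208F and 6631 and 6241 in FE8. All 3 FE8 arrays thus lay above all 3 208F arrays. The difference FE8 minus 208F was 3.13 ± 0.33 (log2, SE of the fit) untreated and 1.79 ± 0.23 treated, with adjusted p = 0.00019 and 0.00060 in limma. The second probe set of Dusp6, X94185cds_s_at, read 275 in untreated 208F and 2279 in untreated FE8. With the drug it read 1082 and 930 in 208F and 4735 and 5857 in FE8. It showed the same order of groups, with differences of 2.79 ± 0.32 untreated and 2.32 ± 0.23 treated (limma adjusted p = 0.00038 and 6.6e-05).

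Dusp5 (AF013144_at) read 399 in untreated 208F and 2123 in untreated FE8. With the drug it read 840 and 762 in 208F and 3032 and 3375 in FE8. Again every FE8 array exceeded every 208F array, with differences of 2.24 ± 0.31 untreated and 1.92 ± 0.22 treated (limma adjusted p = 0.0013 and 0.00024). The separation of all FE8 from all 208F arrays held for 3 of 7 member probe sets, those of Dusp5 and Dusp6, and for 8.55% of all probe sets. In Dusp5 and both Dusp6 probe sets the order of group means was untreated 208F, treated 208F, untreated FE8 and treated FE8. Each step of that order was larger than the gap between duplicates in the treated groups. The steps from untreated to treated arrays of a line did not all pass the test. Every step joins an untreated and a treated group and so crosses run sessions. The share of all probe sets with this order was not computed.

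The Dusp1 and Spry1 signals lay the other way between the lines, but none of their probe sets passed the test. Dusp1 by S81478_s_at read 716 in untreated 208F and 403 in untreated FE8. With the drug it read 2562 and 3044 in 208F and 1416 and 1990 in FE8. Within each line the treated arrays were the higher ones. By U02553cds_s_at, Dusp1 in 208F read 620 without the drug and 1647 and 1288 with it, and in FE8 it read 202 without the drug and 670 and 923 with it. By S74351_s_at, Dusp1 in 208F read 469 without the drug and 1006 and 1037 with it, and in FE8 it read 209 without the drug and 524 and 842 with it. In each Dusp1 probe set FE8 was the lower line untreated and the treated arrays did not overlap between the lines, a pattern held by 16.1% of all probe sets. The order of group means was untreated FE8, untreated 208F, treated FE8 and treated 208F, and its share over all probe sets was not computed. The step from untreated 208F to treated FE8 was within the gap between duplicates by U02553cds_s_at (0.32 against 0.43 on the log2 scale) and by S74351_s_at (0.45 against 0.62), and beyond it by S81478_s_at (1.16 against 0.47).

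The Dusp1 line differences were -0.97 ± 0.39, -0.74 ± 0.34 and -1.36 ± 0.37 untreated for S74351_s_at, S81478_s_at and U02553cds_s_at, with limma adjusted p of 0.24, 0.34 and 0.058. Treated, they were -0.57 ± 0.28, -0.71 ± 0.24 and -0.84 ± 0.26, with limma adjusted p of 0.34, 0.13 and 0.093. U02553cds_s_at passed untreated with a pseudocount of 16 (limma adjusted p = 0.044). Treated, it stood at -1.01 without 208F treated replicate 2, and S81478_s_at stood at -0.83 without 208F treated replicate 1. Spry1 (rc_AA800572_at) was the dimmest member. In 208F it read 179 without the drug and 268 and 364 with it. The FE8 arrays read 88 without the drug and 272 and 146 with it. Its treated arrays overlapped between the lines, and its line differences were -0.68 ± 0.48 untreated and -0.50 ± 0.34 treated (limma adjusted p = 0.63 and 0.58). Its group means had the same order as those of Dusp1, and no neighbouring pair differed by more than the gap between duplicates. Its signals lay close enough to 64 that this pseudocount holds its differences down.

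Counted together, 3 of 7 member probe sets were higher in FE8 and none was lower in each line comparison. Probe sets of the same gene are not independent, so such counts here and below are not counts of genes. Over all probe sets the share higher was 3.09% untreated and 3.42% treated, the share lower was 2.82% and 3.65%, and the share called in either direction was 5.92% and 7.08%. The median over the 7 probe sets was -0.68 untreated and -0.50 treated, against 0.02 and 0.00 over all 4818. It is the value of Spry1, which lay between the Dusp1 probe sets below it and those of Dusp5 and Dusp6 above it. Without FE8 treated replicate 1 or 2, U42627_at no longer passed in the treated comparison (adjusted p = 0.053 and 0.057), while X94185cds_s_at and Dusp5 did. Within the chip lot shared by 3 treated arrays, which leaves out 208F treated replicate 1, the treated differences were 1.55 and 2.42 for the Dusp6 probe sets and 1.98 for Dusp5.

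**Figure D2:**
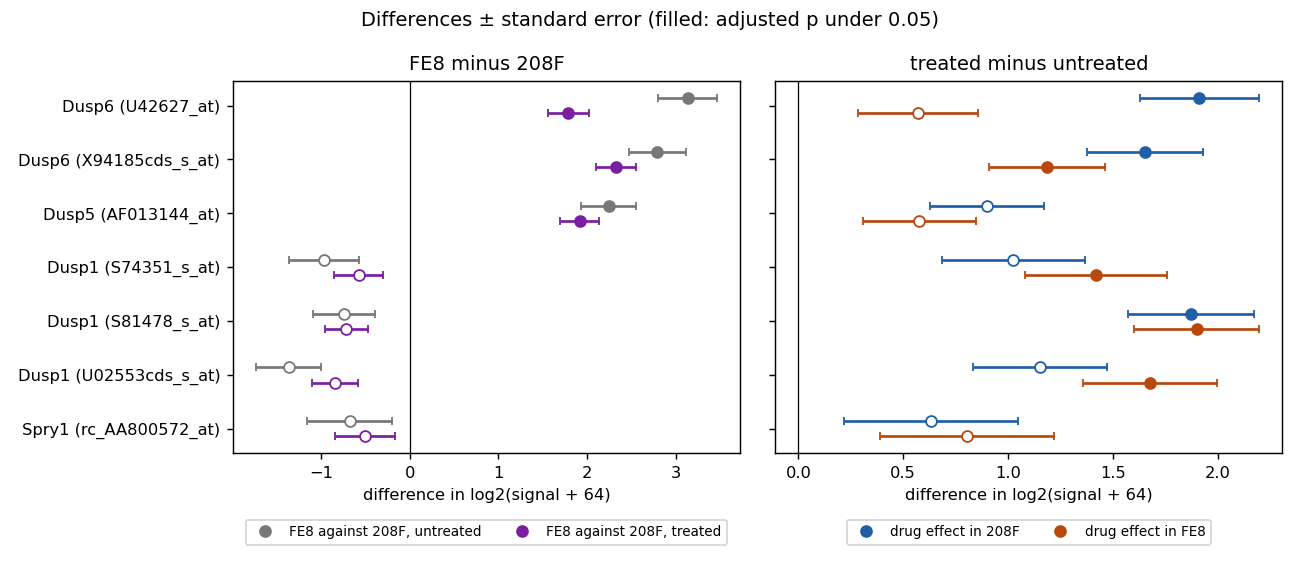
Differences in log2(signal + 64) with their standard errors for the 7 member probe sets, FE8 minus 208F on the left (grey untreated, purple treated) and treated minus untreated on the right (blue 208F, orange FE8). Filled points passed an adjusted p of 0.05: the line differences of Dusp6 and Dusp5 on the left, and on the right Dusp1 and Dusp6 probe sets, with all 14 drug effects above 0.

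Under the drug, all 7 member probe sets had both treated arrays above the untreated array of the same line, in 208F and in FE8. That pattern in both lines held for 28.5% of all probe sets. The median drug effect over the 7 was 1.15 in 208F and 1.19 in FE8, against 0.11 and 0.08 over all probe sets.

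In 208F, 3 of 7 member probe sets rose, against 3.59% of all probe sets (5.19% in either direction). They were Dusp6 by U42627_at, at 1.91 ± 0.29, Dusp6 by X94185cds_s_at, at 1.65 ± 0.28, and Dusp1 by S81478_s_at, at 1.87 ± 0.30 (limma adjusted p = 0.0031, 0.0058 and 0.0045). In signal these were rises from 436 to 1533 and 2156, from 275 to 1082 and 930, and from 716 to 2562 and 3044. The other Dusp1 probe sets stood at 1.03 ± 0.34 and 1.15 ± 0.32 (limma adjusted p = 0.13 and 0.068). Dusp5 stood at 0.90 ± 0.27 and Spry1 at 0.63 ± 0.42 (limma adjusted p = 0.088 and 0.49).

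Single libraries moved these calls in 208F. Both Dusp6 probe sets no longer passed without FE8 treated replicate 1 (adjusted p = 0.056 and 0.064) or replicate 2 (0.054 and 0.060), fits in which only the 208F duplicates give the spread, while S81478_s_at of Dusp1 did. Without 208F treated replicate 1 or 2, Dusp5 stood at 0.84 and 0.97, and without replicate 2 U02553cds_s_at of Dusp1 stood at 1.32. With the probe sets of each gene averaged, a setting chosen after seeing the data, Dusp1, Dusp5 and Dusp6 rose by 1.35, 0.90 and 1.78 (limma adjusted p = 0.014, 0.048 and 0.00084).

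In FE8, 4 of 7 member probe sets rose, against 5.06% of all probe sets (8.16% in either direction). All of these belong to Dusp1 or Dusp6, so they are not 4 separate genes. All 3 Dusp1 probe sets rose, S81478_s_at by 1.90 ± 0.30, U02553cds_s_at by 1.68 ± 0.32 and S74351_s_at by 1.42 ± 0.34 (limma adjusted p = 0.0028, 0.0084 and 0.028). Both treated FE8 arrays exceeded the untreated 208F array by each Dusp1 probe set, with 670 against 620 as the closest pair. Those arrays differ in line, drug and run session at once, and the share over all probe sets was not computed. By U02553cds_s_at and S74351_s_at the step between these groups lay within the gap between duplicates. Dusp6 rose by 1.19 ± 0.28 by X94185cds_s_at (limma adjusted p = 0.025), while U42627_at stood at 0.57 ± 0.29 (0.29). Dusp5 stood at 0.58 ± 0.27 and Spry1 at 0.81 ± 0.42 (limma adjusted p = 0.25 and 0.31).

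The 4 calls in FE8 rested on both duplicates. Without FE8 treated replicate 1 only S81478_s_at passed (adjusted p = 0.048), and without replicate 2 none did, at adjusted p of 0.090 for S81478_s_at, 0.14 for U02553cds_s_at, 0.21 for S74351_s_at and 0.22 for X94185cds_s_at. S74351_s_at was also lost after quantile normalization (0.093) and X94185cds_s_at after median centring (0.066). Cell type markers moved with the drug too. The summed signal of the 9 fibroblast markers went from 93612 without the drug to 85214 and 71023 with it in 208F, and from 58022 to 39159 and 39469 in FE8. The 9 did not all fall. Col1a1 went from 10934 to 12811 and 13955 in 208F and from 166 to 474 and 294 in FE8. In FE8, Fn1 went from 1771 to 3139 and 2100. The summed signal of 3 measured epithelial markers, of 7 listed, went from 168 without the drug to 3458 and 3039 with it in 208F, and from 145 to 4345 and 4418 in FE8, nearly all of it keratin Krt8. The sum of 3 skeletal muscle markers, of 6 listed, went from 386 without the drug to 2047 and 2587 with it in 208F, and from 35 to 412 and 598 in FE8. The epithelial marker Epcam read 6 and 9 on the untreated arrays and 45 to 335 on the treated ones. The part of these in the Dusp drug effects was not tested.

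**Figure D3:**
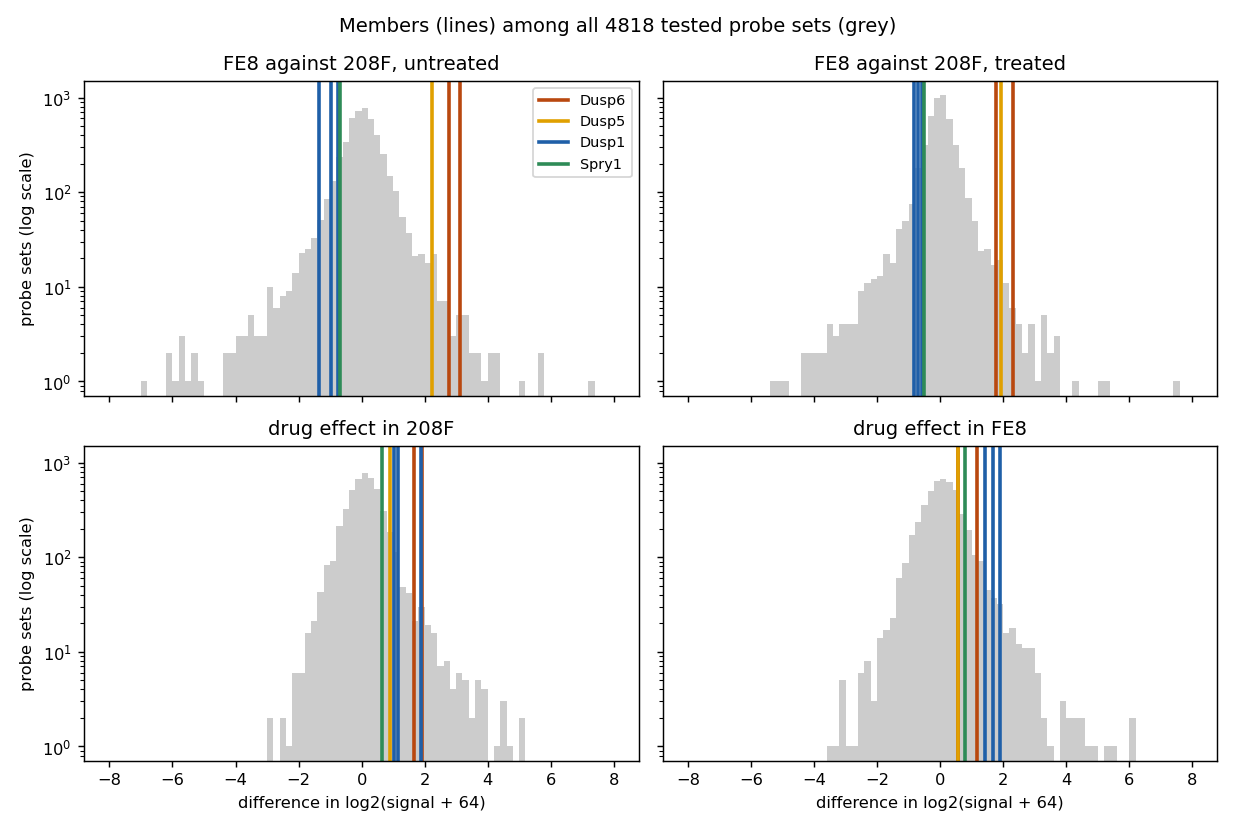
Distribution of the log2 differences of all 4818 probe sets (grey, counts on a log axis) in the line comparisons (top) and drug effects (bottom), with the member probe sets as coloured lines. Dusp6 and Dusp5 lie in the right tail of the line differences, and all members lie to the right of 0 in both drug effects.

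Whether the drug effect differed between the lines was asked with the interaction term of the same fit, FE8 minus 208F. None of the 7 member probe sets passed by limma, where 3 of 4818 probe sets (0.0623%) did, and 1 member and 364 probe sets in all had an unadjusted p under 0.05. For Dusp6 the estimates were below 0 by both probe sets, at -1.34 (95% interval -2.23 to -0.45) for U42627_at and -0.47 (-1.33 to 0.40) for X94185cds_s_at, at limma adjusted p of 0.27 and 1.00. Without 208F treated replicate 1 the estimate for U42627_at was -1.58. For Dusp5 the difference was -0.32 (-1.16 to 0.52) and for Spry1 0.17 (-1.12 to 1.47). For Dusp1 the differences were 0.03 (-0.90 to 0.96), 0.39 (-0.67 to 1.45) and 0.53 (-0.47 to 1.52) for S81478_s_at, S74351_s_at and U02553cds_s_at.

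After centring each probe set on its mean over the 6 arrays, the root mean square difference of log2 values was 0.34 between the Dusp6 probe sets and 0.22 to 0.34 between those of Dusp1. By the same measure the genes most like Dusp6 (U42627_at) among 3949 probe sets were Spp1, which encodes the secreted glycoprotein osteopontin, at 0.29, Pfkp, a phosphofructokinase of glycolysis, at 0.30, and Ddit3, a stress-induced transcription factor, at 0.31. All 3 were closer to U42627_at than the second Dusp6 probe set was. Those most like Dusp5 were the sialyltransferase St6gal1 at 0.19, the laminin chain Lama3 at 0.26 and the leukocyte tetraspanin Cd37 at 0.30. Those most like Dusp1 (S81478_s_at) were Id3, an inhibitor of basic helix-loop-helix factors, at 0.27, Cd59b, a complement inhibitor, at 0.29, and the quinone reductase Nqo1 at 0.30, again closer than the other probe sets of Dusp1. Id3 went from 2606 to 8327 and 8717 with the drug in 208F, and from 2257 to 5932 and 6279 in FE8. Those most like Spry1 were Sort1, a sorting receptor, at 0.07, Nbl1, a BMP antagonist, at 0.11, and the olfactory receptor Or4c52 at 0.13, with signals between 34 and 272 that this pseudocount also holds together.

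Over all probe sets, 3.09% were higher in FE8 untreated and 3.42% treated, and 2.82% and 3.65% were lower. Among 8 other measured feedback inhibitors and phosphatases, of 32 listed, 1 was higher in FE8 in each line comparison and none was lower. It was Errfi1, which encodes the EGF receptor inhibitor Mig6, itself induced by ERK signalling. In 208F, Errfi1 read 165 without the drug and 1112 and 1363 with it, and in FE8 it read 1307 without the drug and 3271 and 3347 with it. Its untreated FE8 array thus lay between the treated 208F arrays. It was higher in FE8 by 2.58 ± 0.32 untreated and 1.38 ± 0.23 treated (limma adjusted p = 0.00057 and 0.0027), and it rose with the drug by 2.50 ± 0.28 in 208F and 1.30 ± 0.28 in FE8 (0.00041 and 0.015). The treated line difference and the FE8 drug effect of Errfi1 were lost without FE8 treated replicate 1 (adjusted p = 0.090 and 0.18) or 2 (0.11 and 0.17). In FE8 Pebp1, the RAF kinase inhibitor protein, fell with the drug, at -1.19 ± 0.27 (limma adjusted p = 0.020), from 4604 to 2026 and 1931, a call lost without FE8 treated replicate 1 (0.22) or 2 (0.20). The list's medians were 0.17 and 0.13 in the line comparisons and 0.07 and -0.02 in the drug effects. The Errfi1 values above are those of its brightest probe set. With the probe set of smallest p per gene, 1 gene was again higher in the FE8 drug effect, and the list's largest effect there was 2.68.

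By their brightest probe sets, calls among genes of the ERK cascade lay in the FE8 drug effect. Of 12 measured genes of the ERK cascade, of 33 listed, none passed in either line comparison or in the 208F drug effect, with medians of -0.02, 0.21 and 0.12. In the FE8 drug effect the receptor Fgfr1 rose by 1.25 ± 0.34, from 188 to 519 and 548, and Map2k2, which encodes the ERK kinase MEK2, fell at -1.21 ± 0.28, from 4987 to 2072 and 2180 (limma adjusted p = 0.044 and 0.024). They are 2 of 12, where 8.16% of all probe sets were called in either direction. Both calls were lost without FE8 treated replicate 1 or 2. In all, the Fgfr1 call was lost in 6 of 10 alternatives and that of Map2k2 in 4 of 11, quantile normalization among them for both. In either direction, 5.92% of all probe sets were called in the untreated line comparison, 7.08% in the treated one and 5.19% in the 208F drug effect. Of a list named stress MAP kinases, 11 of 21 genes were measured. It also held Mapk6, an atypical MAP kinase, and Gadd45a, which is not a kinase. Of the 11 genes, 1 was higher in untreated FE8 (Mapk6, 1.20 ± 0.31) and none passed in the treated line comparison. Of the same 11 genes, Gadd45a rose in 208F (1.70 ± 0.29), and in FE8 Map3k1 rose (1.21 ± 0.29) while Map3k12 fell (-1.24 ± 0.28). These 4 calls were lost without FE8 treated replicate 1 or 2. In all, that of Mapk6 was lost in 7 of 11 alternatives and that of Map3k1 in 5 of 11.

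Among 27 measured genes induced by ERK signalling, of 42 listed, 4 were higher and 1 was lower in untreated FE8. In treated FE8, 8 were higher and 1 was lower. Of all probe sets, 3.09% were higher and 2.82% lower untreated, and 3.42% and 3.65% treated. The list medians were 0.31 and 0.49. The AP-1 subunit Fosl1 was higher in FE8 by 3.22 ± 0.38 untreated and 2.08 ± 0.27 treated, and the growth factor Tgfa by 2.05 ± 0.47 and 2.08 ± 0.33. Spp1 was higher by 2.65 ± 0.40 and 2.04 ± 0.28. Ccn1, a matricellular protein, was lower, at -2.94 ± 0.35 and -3.33 ± 0.24. The zinc finger factor Klf4 was higher untreated (3.14 ± 0.59), and Egr2 was higher treated (2.21 ± 0.31). Fos and Jun, the classical AP-1 subunits, passed in neither line comparison, at -0.66 and 0.92 untreated and -0.30 and 0.38 treated. With FE8 treated replicate 1 or 2 left out, Klf4 (0.088 and 0.086), Tgfa (0.088 and 0.088) and Spp1 (0.052 and 0.052) did not pass untreated, nor did Spp1 treated (0.078 and 0.074). Without replicate 2, Fosl1 (0.058) and Tgfa (0.090) did not pass treated.

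With the drug, 4 of the 27 ERK-induced genes rose in 208F and 9 in FE8, and none fell. Of all probe sets, 3.59% rose in 208F and 5.06% in FE8. The list medians were 0.64 and 0.81 against 0.11 and 0.08 over all probe sets. The immediate early factor Egr1 rose in FE8 by 2.86 ± 0.29, from 2798 to 21256 and 20151, and stood at 0.90 ± 0.29 in 208F (limma adjusted p = 0.00017 and 0.12). The difference between these Egr1 effects, 1.96 ± 0.41, did not pass (0.089). The protease Plau rose in both lines, by 1.89 ± 0.35 in 208F and 2.52 ± 0.35 in FE8. The stress-responsive factor Atf3 rose by 1.80 ± 0.33 in 208F and 1.56 ± 0.33 in FE8. The AP-1 subunit Junb rose by 1.12 ± 0.29 in 208F and 1.35 ± 0.29 in FE8, but its 208F call, at adjusted p = 0.0497 in limma, was lost in 9 of 11 alternatives. Klf4 rose in 208F, from 45 to 443 and 1439, and stood at 0.37 ± 0.51 in FE8. In FE8 Egr2 rose by 1.94 ± 0.38 and the EGF receptor ligand Areg by 1.71 ± 0.42, while in 208F they stood at 0.20 ± 0.38 and 1.42 ± 0.42. None of these differences between the lines passed. Fosl1, high in FE8, stood at -1.18 ± 0.33 with the drug there (limma adjusted p = 0.051). Without FE8 treated replicate 1 or 2, the 208F calls of Klf4, Atf3, Plau and Junb were lost (adjusted p 0.059 to 0.18), as were the FE8 calls of Egr2, Areg, Atf3 and Junb (0.081 to 0.24), while Egr1 and Plau in FE8 passed.

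**Figure D4:**
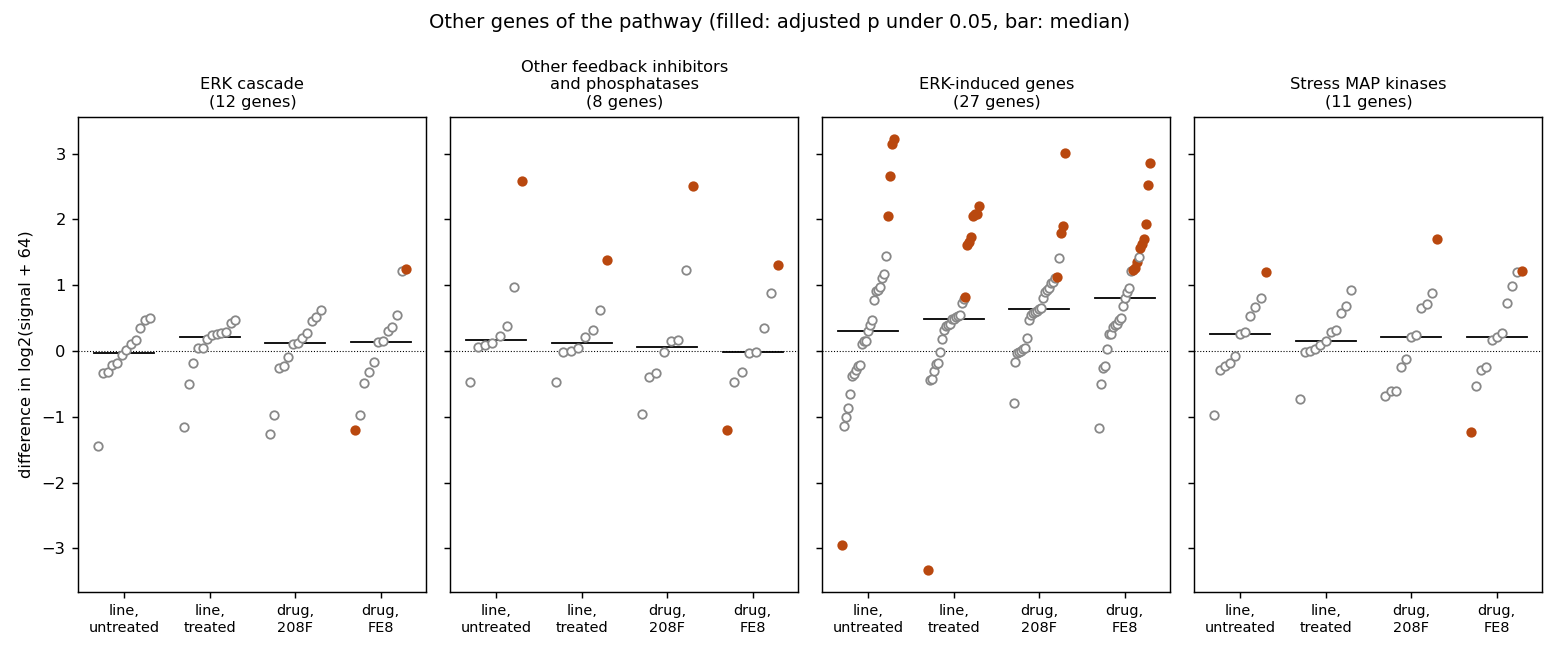
Log2 differences of the other pathway genes by list (1 point per gene, its brightest probe set) in the line comparisons without and with the drug and in the drug effects in 208F and FE8, where filled points passed an adjusted p of 0.05 and bars are list medians. The filled point above 0 in every comparison of the feedback inhibitors is Errfi1, and ERK-induced genes have the most filled points, 9 of them in the FE8 drug effect.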

How the data were processed

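6 RNA samples were hybridised to Affymetrix RG_U34A rat arrays. The deposited table gives a linear signal intensity, in whole numbers, for 4847 probe sets. Per the submitters' processing notes it was made with MAS5, whose version, settings and probe set filter are not given in the sources used here, and 29 control probe sets were left out. The annotation pairs 3956 probe sets with exactly 1 gene (2890 genes), 207 with several and 655 with none. Symbols came from GEO's platform annotation, updated by gene identifier to RefSeq GRCr8 (3942 matched), and promoter sequences are RefSeq's, with all 4 members matched (those of Dusp6 and Spry1 overlap the gene and are not shown). Chip lots and run days came from each array's settings record.

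Signals were taken as already scaled (means per array 1258 to 1390) and transformed as log2(value + 64). A model of 4 group means was fitted to 4818 probe sets by lmFit and a trended eBayes step (limma version 3.58.1, R version 4.3.3). It had 2 residual degrees of freedom, and the prior added 9.02. Without 208F treated replicate 1 or 2 the prior was infinite, which lowers p-values. Without FE8 treated replicate 1 or 2 it added 5.578 or 5.615. The lone untreated array of each line was taken to vary as the treated duplicates do. Tests were 2-sided, and Benjamini-Hochberg adjusted values under 0.05, per comparison, counted as calls. The number of arrays limits the precision. The fit was tested on simulated data.

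The members and lists were chosen with earlier results of these data known. Every member probe set was named in every comparison, with up to 4 genes per list, direction and comparison by size of change, using each gene's brightest probe set, and the 3 genes most like each member. Values of such a gene in the other line (Atf3, Junb, Klf4, Egr2 and Areg) and of single markers were added after they were seen. Alternatives were other pseudocounts, quantile normalization, median centring, a brightness filter, no intensity trend, a replicate block, treated arrays alone, the probe set of smallest p per list gene, each treated replicate left out and, added later, averaged probe sets.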

Additional observations from a re-analysis of the deposited data

How the results depend on the processing

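Leaving out a 208F treated replicate made the prior degrees of freedom infinite, which lowers p-values, so counts from those fits are not like the others. With 1 untreated array per line, the error comes from the treated duplicates, and leaving one out moved every count of calls. In these fits probe sets past the threshold numbered 109 to 541 for the untreated line comparison (285 in the full fit), 96 to 530 for the treated one (341), 75 to 663 for the 208F drug effect (250), 76 to 783 for the FE8 drug effect (393) and 0 to 206 for their difference (3). Member probe sets called ranged from 3 to 4 and from 2 to 4 in the line comparisons, from 1 to 5 in the 208F drug effect, from 0 to 4 in the FE8 drug effect and from 0 to 1 in the difference. All probe sets called for the difference were 10 with a pseudocount of 16, 6 with 200, 9 after median centring, 12 with probe sets averaged per gene, and 0 after quantile normalization, among brighter probe sets, with no intensity trend or with the replicate block. Quantile normalization left 165 calls in the 208F and 258 in the FE8 drug effect. The filter to the 2409 brighter probe sets, which drops Spry1, left 193 in the treated line comparison and 156 in the 208F drug effect. With no intensity trend 2 member probe sets were called in the FE8 drug effect, against 4. The line differences of Dusp5 and both Dusp6 probe sets kept their call under every pseudocount, scaling, filter and block tried.

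The difference of drug effects turned sign for S81478_s_at of Dusp1, from 0.03 to -0.067 with a pseudocount of 200 and -0.013 after quantile normalization, and it lay between -0.21 and 0.26 with a treated replicate left out. For Spry1 it was 0.17, and between -0.17 and 0.51 with a treated replicate left out. The cause was not tested. Median centring moved the median drug effect over all probe sets from 0.11 to -0.03 in 208F and from 0.08 to -0.04 in FE8, and no member changed direction under it. Treated replicates share only a number between the lines, and the deviations of number 1 from their group means correlated at 0.319 over probe sets. With the replicate block the counts were 285, 325, 216 and 429 for the line comparisons and drug effects, and no member call changed, while Mapk6 untreated (adjusted p = 0.063) and Junb in 208F (0.051) no longer passed. Calls of named probe sets lost were 8 after quantile normalization, 5 after median centring, 10 with no intensity trend (S74351_s_at and X94185cds_s_at in FE8 among them) and 2 each with a pseudocount of 200 and the brightness filter. List calls moved with the probe set of smallest p per gene. For the ERK cascade they went from 0 to 1 in the treated line comparison and the 208F drug effect. For the list named stress MAP kinases they went from 1 to 2 in the untreated line comparison. For ERK-induced genes they went from 4 to 5 in the 208F drug effect.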
